A study of Mus musculus with 4 samples.

Results

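The 44 genes described here comprise 4 genes of the Myc network and 40 genes of ribosome biogenesis. They were chosen by name, and all 44 were found among the 23213 gene symbols of the array. They had 61 of its 30843 probes with a symbol. For the 14 genes with several probes, the probe with the highest mean log2 level over the 4 arrays was used, and 30 genes had 1 probe. Bone marrow-derived macrophages (BMDMs) of C57BL/6J mice aged 10 weeks were compared on 1 Agilent array for each condition. All cultures had been grown for 6 days in L929 cell supernatant, a source of M-CSF, and were then stimulated for 2 days. M1 BMDMs were wild type and received IFN-γ (20 ng/ml) and LPS (100 ng/ml). M2 BMDMs were wild type and received IL-4 (50 ng/ml). Torin1-treated M2 BMDMs were wild type and received IL-4 together with Torin1 (250 nM), an ATP-competitive inhibitor of the kinase mTOR. Lamtor1-deficient M2 BMDMs received the same IL-4 dose. Lamtor1 is the lysosomal anchor on which mTORC1 is activated, and the labels name its genotype p18 (2400001E08Rik) -/-. The study made these cells with LysM-Cre, which is active in myeloid cells, from floxed mice, and its littermate controls carried the floxed alleles without Cre. With 1 culture and 1 array per condition there was no replicate, so no p-value was computed, and every difference below compares 4 single arrays.

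Ribosome biogenesis takes place mainly in the nucleolus. RNA polymerase I transcribes the ribosomal RNA precursor, small nucleolar ribonucleoproteins (snoRNPs) modify it, and separate sets of assembly factors build the small and large subunits. Myc pairs with Max, binds E-box sequences such as CACGTG and is a classical activator of these genes, whereas Mxd proteins compete for Max and repress. mTORC1 is known for promoting both ribosomal RNA synthesis and the translation of ribosomal protein mRNAs.

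E-boxes were looked for in RefSeq promoter windows on GRCm38.p6, from 250 bases before to 50 bases after each transcription start. Windows were found for 38 of the 44 genes and were missing for Myc, Fbl, Rrp12, Bop1, Rrs1 and Npm1. CACGTG, which reads the same on both strands, occurred in 10 of the 38 genes (26.3%), namely Max, Mxd4, Mybbp1a, Nop2, Pes1, Pno1, Rrn3, Tsr1, Utp20 and Wdr43. It occurred in 8.09% of the 27025 genes with a window of this length, in 9.41% of the 15128 of them that the array names, and in 17.8% of 73 other ribosome biogenesis genes. Without the Myc network genes Max, Mxd1 and Mxd4, it occurred in 8 of 35 genes (22.9%). The variant CACGCG, searched on both strands, was present in 28.9% of the 38 genes, in 14.3% of the genes with a window that the array names and in 27.4% of the 73 other ribosome biogenesis genes. The variant CATGTG, searched likewise, was present in 18.4%, 12.9% and 11.0%. These are matches of letters and not binding sites.

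Promoters of 4 genes are shown, the 2 with the E-box at or next to the start (Max, the obligate partner of Myc, and Pes1, of large subunit assembly), the 1 with 2 E-boxes (Rrn3, which recruits RNA polymerase I) and that of Tsr1 (small subunit assembly), whose level was 24.2-fold lower in M1 than in M2. Each runs 5′ to 3′ from 250 bases before to 30 bases after the start, with the E-boxes in capitals. Max lies on the minus strand of chr12:76962219-76962498 and the others on the plus strand, Rrn3 at chr16:13780449-13780728, Pes1 at chr11:3963725-3964004 and Tsr1 at chr11:74897830-74898109.
Max: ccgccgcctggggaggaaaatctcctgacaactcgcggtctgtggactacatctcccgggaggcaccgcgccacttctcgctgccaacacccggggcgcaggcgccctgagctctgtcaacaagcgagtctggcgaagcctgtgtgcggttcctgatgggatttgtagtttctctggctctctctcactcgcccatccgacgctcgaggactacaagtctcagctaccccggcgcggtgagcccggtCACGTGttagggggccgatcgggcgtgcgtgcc
Rrn3: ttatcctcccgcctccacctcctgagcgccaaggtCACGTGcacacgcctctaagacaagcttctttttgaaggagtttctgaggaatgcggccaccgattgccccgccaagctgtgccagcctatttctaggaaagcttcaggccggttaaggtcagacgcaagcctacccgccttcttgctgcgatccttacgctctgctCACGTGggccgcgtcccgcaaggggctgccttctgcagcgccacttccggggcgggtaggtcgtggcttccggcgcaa
Pes1: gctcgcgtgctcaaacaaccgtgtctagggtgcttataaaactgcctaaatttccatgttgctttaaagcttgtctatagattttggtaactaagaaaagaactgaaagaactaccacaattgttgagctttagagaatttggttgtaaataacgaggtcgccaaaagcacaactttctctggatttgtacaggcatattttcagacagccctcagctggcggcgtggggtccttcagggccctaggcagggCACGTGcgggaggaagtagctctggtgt
Tsr1: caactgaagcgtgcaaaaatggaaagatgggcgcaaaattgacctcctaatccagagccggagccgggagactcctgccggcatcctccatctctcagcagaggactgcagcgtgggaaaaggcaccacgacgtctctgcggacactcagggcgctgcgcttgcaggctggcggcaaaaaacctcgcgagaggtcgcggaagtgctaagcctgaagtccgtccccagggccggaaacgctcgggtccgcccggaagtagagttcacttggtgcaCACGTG

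Counted from the start, the E-box began at base -3 in Max, at 2 in Pes1, at 24 in Tsr1 and at -215 and -48 in Rrn3. In M1 against M2, genes with the E-box had a median log2 ratio of -2.51 (10 genes, 7 of them at least 2-fold lower), and that of the 28 genes without it was -2.19 (21 at least 2-fold lower). After Lamtor1 loss the medians were 0.31 and 0.08, and after Torin1 they were -0.11 and -0.08.

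The arrays differed in brightness, with a 75th percentile of the signal of 287 in M1, 595 in M2, 536 in Lamtor1-deficient M2 and 470.0 in Torin1-treated M2 BMDMs. Levels are therefore given as log2 of the signal over the 75th percentile of the same array, and they are compared only within a probe. Of the 44 genes, 44 were well above background on each of the 3 arrays of IL-4-stimulated cells and 41 on the M1 array, where Polr1e, Dkc1 and Utp20 were not. Spots of probes printed repeatedly gave a technical SD of the log2 ratio of 0.088 for Lamtor1 loss, 0.093 for Torin1 and 0.10 for M1, which leaves out all spread between cultures. The probe of the targeted gene, 2400001E08Rik (Lamtor1), had a log2 level of 5.68 in M1, 6.05 in M2, 0.64 in Lamtor1-deficient M2 and 6.23 in Torin1-treated M2 BMDMs, a log2 ratio of -5.42 for the library labelled Lamtor1-deficient. All 7 macrophage markers were well above background on every array.

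Myc was highest in M2 and lower under every other condition. Its log2 level was -2.74 in M1, 2.78 in M2, 1.43 in Lamtor1-deficient M2 and 0.12 in Torin1-treated M2 BMDMs. Against M2 it was thus 2.54-fold lower after Lamtor1 loss, 6.32-fold lower after Torin1 and 45.8-fold lower in M1. With other scalings the log2 ratio for M1, -5.52 here, ran from -6.34 (median shift) to -4.27 (normexp, which adds an offset of 50 to every signal). Its 1 probe was printed as 2 spots and lies on the plus strand of chr15:61821417-61821476 (mm9). The probe is shown because Myc was at least 2-fold lower in all 3 comparisons.
Myc probe: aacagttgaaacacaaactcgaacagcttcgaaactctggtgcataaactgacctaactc

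The antagonist Mxd4 changed in the same direction as Myc. Its log2 level was -0.42 in M1, 3.66 in M2, 1.62 in Lamtor1-deficient M2 and 1.64 in Torin1-treated M2 BMDMs, and the log2 ratios to M2 were -2.04 for Lamtor1 loss, -2.02 for Torin1 and -4.09 for M1. The 2 perturbed M2 arrays lay close together for this gene, and its second probe gave -2.11 and -1.76. In M1 the second probe was not well above background and was at least 32.1-fold lower, against 17.0-fold on the probe used. Myc and Mxd4 were the 2 of the 44 genes that were at least 2-fold lower in all 3 comparisons, as were 2.88% of all genes and 2.32% of those well above background on every array. These comparisons share the M2 array, so a high M2 value would enter all of them.

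Max and the antagonist Mxd1 were highest in M1. The log2 level of Max was 5.83 in M1, 4.27 in M2, 4.81 in Lamtor1-deficient M2 and 4.63 in Torin1-treated M2 BMDMs, and it was 2.95-fold higher in M1 than in M2. That of Mxd1 was 7.91, 1.11, 1.29 and 1.05 in the same order, 112-fold higher in M1 than in M2, with its second probe 5.61 higher on the log2 scale. Neither gene was 2-fold different after Lamtor1 loss or Torin1. Shifting the arrays to their medians left Max 0.74 higher in M1, within 2-fold, and Mxd1 5.98 higher.

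**Figure D1:**
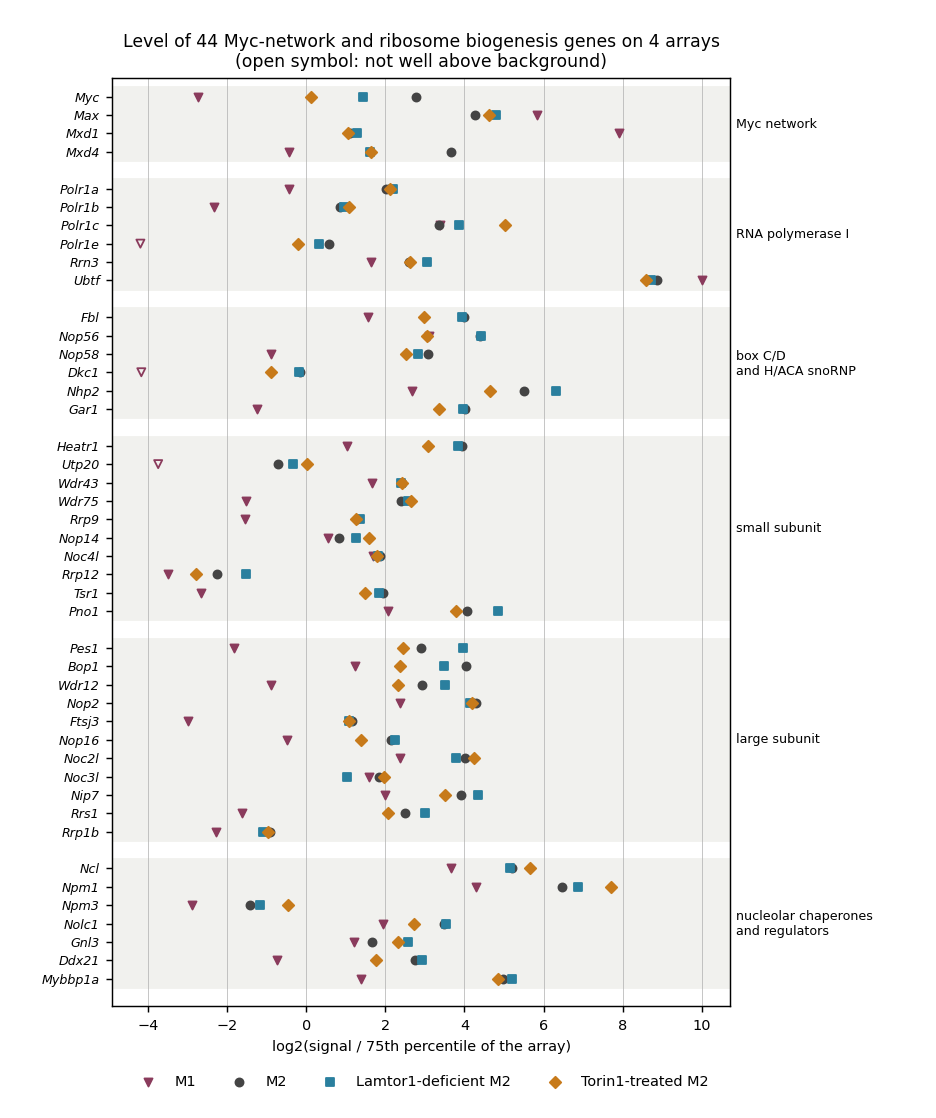
Log2 level (signal over the 75th percentile of the same array) of the 44 genes on the 4 arrays, grouped by role. Each symbol is 1 array, and open symbols are not well above background. The M1 array had the lowest level for 38 of the 44 genes, and levels are to be compared within a row only.

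Among 9 other genes of the MAX network, 3 were at least 2-fold lower after Lamtor1 loss, 3 were lower and 2 higher after Torin1, and 2 were lower and 2 higher in M1. Among those well above background on both arrays compared, Mlxipl, which encodes the glucose-responsive factor ChREBP, was the 1 that fell after Lamtor1 loss and the 1 that fell after Torin1. Its log2 level was 2.83 in M1, 2.01 in M2, -0.21 in Lamtor1-deficient M2 and -0.96 in Torin1-treated M2 BMDMs. The repressor Mnt was 1.40 higher on the log2 scale after Torin1. In M1, Mga was 1.49 lower and Mlx 1.28 higher on that scale. Also counted in M1 were Mxd3, 1.93 lower but not well above background there, and Mycl1. Mycl1 was not well above background in M2 and was at least 6.32-fold higher in M1.

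Lamtor1 loss left most ribosome biogenesis genes near their M2 level. Of the 44 genes, 2 were at least 2-fold lower, which were Myc and Mxd4, 1 was at least 2-fold higher, and 41 lay within 2-fold. Over all genes with a value, 8.67% were at least 2-fold lower and 8.88% higher, and among genes well above background on both arrays the shares were 7.73% and 7.84%. The median log2 ratio of the 44 genes was 0.10, against 0.09 over all genes well above background. Of the 44, 18 lay within 2 technical SDs of no difference.

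The 1 gene counted as higher after Lamtor1 loss was Pes1, a subunit of the complex with Bop1 and Wdr12 that matures the large subunit. Its log2 level was -1.83 in M1, 2.90 in M2, 3.96 in Lamtor1-deficient M2 and 2.46 in Torin1-treated M2 BMDMs. The count rests on 1 probe, since its second probe gave a log2 ratio of -0.34 for Lamtor1 loss where the first gave 1.06. The brightest probe holds an exact repeat of 12 bases within itself, shown in capitals in its bases 1 to 24 and 37 to 60. Without the brightest Ubtf and Pes1 probes, no member probe held a repeat longer than 8 bases.
Pes1 probe, bases 1 to 24: AAGTATGTATGGctcacacttcca
Pes1 probe, bases 37 to 60: aaAAGTATGTATGGttcacacttc

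The other 39 ribosome biogenesis genes had log2 ratios from -0.80 to 0.91 after Lamtor1 loss. The lowest was Noc3l, a large subunit export factor, at a log2 level of 1.83 in M2 and 1.03 in Lamtor1-deficient BMDMs. The highest were Gnl3, the GTPase nucleostemin (0.91), Nhp2, an H/ACA snoRNP protein (0.79), and Pno1, of small subunit assembly (0.77). The median log2 ratios were 0.15 for RNA polymerase I genes, -0.03 for snoRNP genes, 0.14 for small subunit genes, -0.07 for large subunit genes and 0.22 for nucleolar chaperones and regulators. None of these was as large as 2-fold, and 7 of the 44 genes changed sign with another scaling of the arrays. Of 92 other ribosome biogenesis genes, 0 passed 2-fold in either direction, with a median log2 ratio of 0.08.

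After Torin1, 6 of the 44 genes were at least 2-fold lower, 2 were higher and 36 lay within 2-fold. Over all genes with a value 11.8% were at least 2-fold lower and 14.3% higher, and among those well above background on both arrays 13.1% and 11.9%. The share of the 44 genes that fell, 6 of 44, was thus near that of all genes. The median log2 ratio was -0.20, against 0.02 over all genes well above background, and 30 of 44 ratios were below 0 (25 to 35 with the 4 other scalings), against 52.6% of all genes and 49.2% of those well above background on both arrays. Of the 44 genes, 11 lay within 2 technical SDs of no difference.

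The genes that fell after Torin1 were, beside Myc and Mxd4, Bop1, Nop56, Fbl and Ddx21. Bop1, of the Pes1 complex, had a log2 level of 1.24 in M1, 4.03 in M2, 3.48 in Lamtor1-deficient M2 and 2.37 in Torin1-treated M2 BMDMs, and was 3.17-fold lower after Torin1. Nop56, a core protein of box C/D snoRNPs, had levels of 3.11, 4.40, 4.43 and 3.06 in the same order, and its 3 probes gave log2 ratios from -1.63 to -1.15. For Nop56 the Lamtor1-deficient array lay close to M2 and the Torin1 array close to M1.

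Fbl, the methyltransferase fibrillarin of the same snoRNPs, and Ddx21, a nucleolar RNA helicase, lay at the 2-fold line. Fbl had log2 levels of 1.57 in M1, 4.00 in M2, 3.93 in Lamtor1-deficient M2 and 2.99 in Torin1-treated M2 BMDMs. Ddx21 had -0.73, 2.76, 2.93 and 1.76. They were 2.02-fold and 2.001-fold lower after Torin1, and over the 4 other scalings the smallest changes were -0.93 and -0.92 on the log2 scale, within 2-fold. The second Ddx21 probe had a log2 ratio of -1.22 after Torin1.

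All 6 snoRNP genes had log2 ratios below 0 after Torin1. The log2 ratios were -1.02 for Fbl, -1.34 for Nop56 and -0.56 for Nop58, of box C/D snoRNPs, and -0.72 for the pseudouridine synthase Dkc1, -0.86 for Nhp2 and -0.66 for Gar1, of H/ACA snoRNPs. Their median was -0.79, and all 6 ratios stayed below 0 with each of the 4 other scalings, although 2 of the 6 passed 2-fold. Other core snoRNP proteins were nearer to their M2 level, with -0.03 for Nop10 and -0.21 for Nhp2l1, and the snoRNP assembly factors Naf1 and Shq1 had 0.32 and 0.84. These 4 genes were picked with their values known. The median was -0.41 for large subunit genes, -0.05 for small subunit genes, 0.05 for RNA polymerase I genes and 0.44 for nucleolar chaperones and regulators. Of the 11 large subunit genes 9 were below 0, and 7 to 11 of 11 with the 4 other scalings. The medians of small subunit and of RNA polymerase I genes changed sign with another scaling.

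Polr1c and Npm1 were the 2 genes that rose after Torin1. Polr1c, a subunit shared by RNA polymerases I and III, was spotted 10 times and had a log2 level of 3.38 in M1, 3.36 in M2, 3.87 in Lamtor1-deficient M2 and 5.01 in Torin1-treated M2 BMDMs. It was 3.14-fold higher after Torin1. Npm1, the histone chaperone nucleophosmin, had levels of 4.28, 6.46, 6.86 and 7.70, and its 4 probes gave log2 ratios from 1.24 to 1.51 for Torin1. With 2 of the 4 other scalings the brightest Npm1 probe came just within 2-fold, the lowest at 0.98. Its relative Npm3 had a log2 ratio of 0.96, just inside the threshold.

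**Figure D2:**
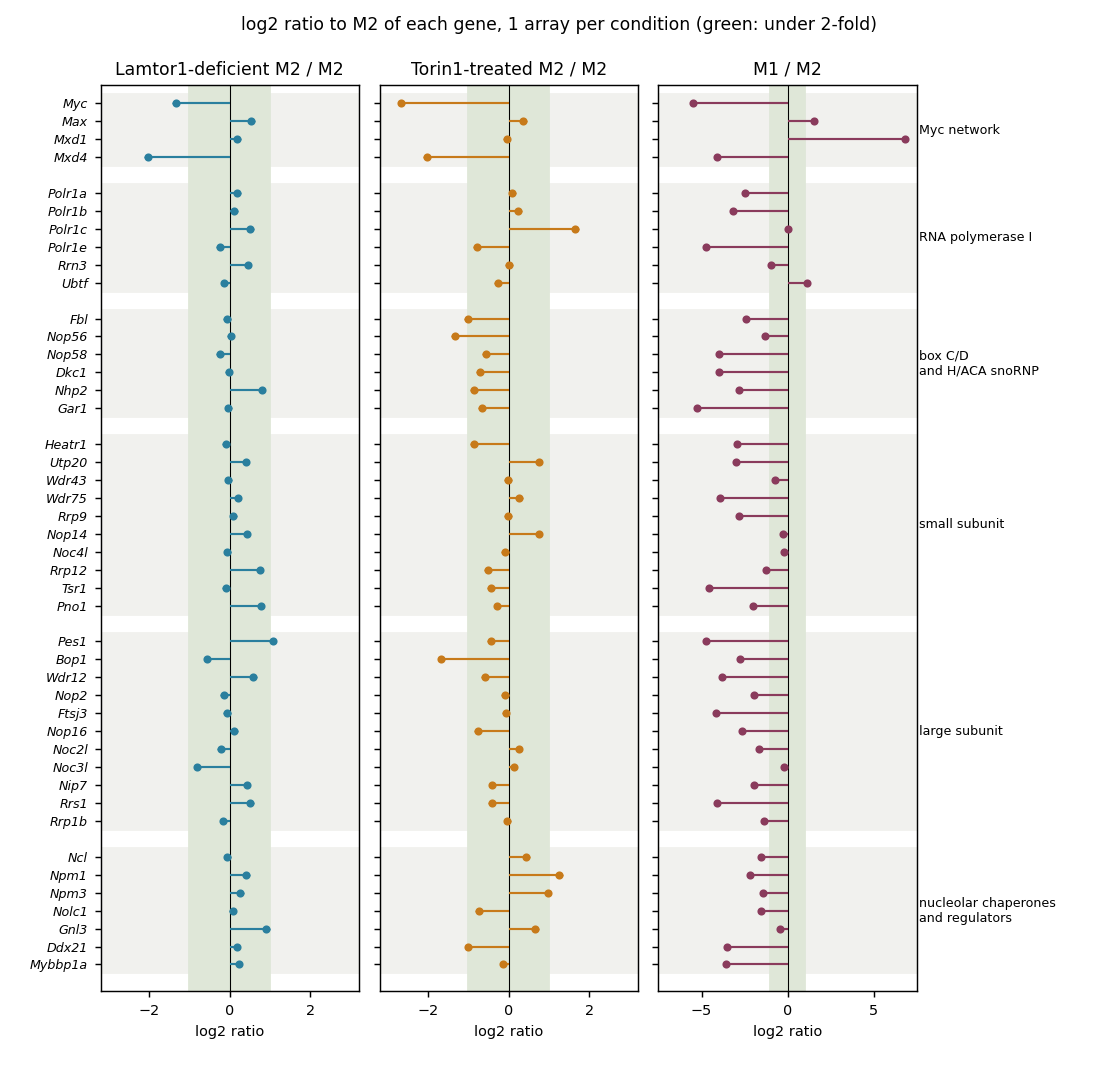
Log2 ratio to the M2 array of each gene, grouped by role, for Lamtor1 loss, Torin1 and M1. Bars on the points are 1 technical SD from repeated spots (about 0.1, smaller than most points), green marks less than 2-fold, and the M1 panel has a wider axis. Most points lie in the green band in the left and middle panels, and 34 of 44 lie to its left in the M1 panel.

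Read directly against each other, Torin1-treated and Lamtor1-deficient BMDMs differed by at least 2-fold in 10 of the 44 genes. Torin1-treated cells were lower in 9 and higher in 1, with a median log2 ratio of -0.29. Over all genes 11.7% were lower and 12.7% higher, and among those well above background on both arrays 12.9% and 9.85%. All 6 snoRNP genes were below their Lamtor1-deficient level, with a median of -0.82. So were 13103 of all 23175 genes (median -0.12) and 7668 of the 13950 well above background on both arrays (median -0.09). Of the 44 genes, 0 were 2-fold lower after one perturbation and 2-fold higher after the other, a pattern of 1.23% of all genes. Within 2-fold after both lay 35 of the 44, and 66.8% of all genes (70.3% of those well above background on every array), in comparisons that share the M2 array.

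M1 BMDMs had far lower levels of these genes than M2 BMDMs. Of the 44 genes, 34 were at least 2-fold lower, 3 were higher and 7 lay within 2-fold. Over all genes 19.3% were at least 2-fold lower and 30.6% higher, and among genes well above background on both arrays 25.3% and 25.1%. The median log2 ratio was -2.45, against 0.09 over all genes well above background and 0.74 over all genes with a value. With the arrays shifted to their medians, 40 of the 44 genes were lower. Levels were at least 8-fold lower for 16 genes and at least 16-fold lower for 9, counting Dkc1 at its measured value. These counts depended on the scaling. At the smallest change over the 4 other scalings, Myc (-4.27) and Gar1 (-4.84) alone stayed at least 16-fold lower. Polr1b (-2.30), Polr1e (-2.58), Dkc1 (-1.82), Utp20 (-1.29) and Ftsj3 (-2.96) then came within 8-fold. Of all genes, 4.7% were at least 8-fold and 2.1% at least 16-fold lower, and of those well above background on both arrays 4.75% and 1.68%. Of the 37 genes past 2-fold in M1, 13 had folds smaller by over 1.5 times with normexp, and the median shift moved all their log2 ratios by -0.82.

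RNA polymerase I genes were uneven in M1. The catalytic subunits Polr1a and Polr1b were 5.50-fold and 9.02-fold lower than in M2. For Polr1b the smallest log2 change over the 4 other scalings was -2.30. Polr1e was not well above background in M1 and was at least 22.8-fold lower, but its log2 ratio was -2.58 with normexp. Polr1c had a log2 ratio of 0.02, and Rrn3 one of -0.96, just inside 2-fold.

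Ubtf, the upstream binding factor of ribosomal DNA, counted as higher in M1 by 1.15 on the log2 scale. Its log2 level was 10.01 in M1, 8.86 in M2, 8.72 in Lamtor1-deficient M2 and 8.58 in Torin1-treated M2 BMDMs. This probe opens with a run of 29 bases of alternating T and G, shown in capitals, whereas no such run in the probes of the other genes was longer than 7 bases. The second Ubtf probe, whose log2 ratios to M2 were -1.26 for Lamtor1 loss, 0.99 for Torin1 and -0.83 for M1, went the other way in 2 of the 3 comparisons. Quantile normalization also left 0.08 of the 1.15. The part that binding of other transcripts to the repeat had in these values was not tested.
Ubtf probe, bases 1 to 30: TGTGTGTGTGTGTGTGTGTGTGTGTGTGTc

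All 6 snoRNP genes fell in M1, with a median log2 ratio of -3.41. Gar1 was the lowest, with log2 levels of -1.24 in M1, 4.01 in M2, 3.97 in Lamtor1-deficient M2 and 3.35 in Torin1-treated M2 BMDMs, and was 38.2-fold lower in M1 than in M2. Nop58 was 15.7-fold, Nhp2 7.15-fold, Fbl 5.41-fold and Nop56 2.45-fold lower. Dkc1 was not well above background in M1 and was at least 13.7-fold lower, with a log2 ratio of -1.82 under normexp.

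Of the 10 small subunit genes, 7 fell in M1. Tsr1 was 24.2-fold and Wdr75 15.1-fold lower, and Heatr1, Rrp9, Pno1 and Rrp12 were 7.53-fold, 7.15-fold, 4.00-fold and 2.35-fold lower. Over the 4 other scalings the smallest log2 changes were -3.51 for Tsr1, -3.29 for Wdr75 and -2.18 for Rrp9. Utp20, a processome scaffold, was not well above background in M1 and was at least 8.15-fold lower, with a log2 ratio of -1.29 under normexp. Nop14 and Noc4l had log2 ratios of -0.29 and -0.19. Wdr43 had -0.75, but its second probe gave -2.89.

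Of the 11 large subunit genes, 10 fell in M1. All 3 genes of the Pes1 complex fell, Pes1 by 26.6-fold (with a log2 ratio of -1.98 for its second probe), Wdr12 by 14.2-fold and Bop1 by 6.91-fold. The second Wdr12 probe was not well above background in M1 and was at least 26.5-fold lower there. Ftsj3 and Rrs1 were 17.6-fold and 17.5-fold lower, Nop16 6.26-fold, the methyltransferase Nop2 3.81-fold, Nip7 3.81-fold, Noc2l 3.11-fold and Rrp1b 2.57-fold lower. Over the 4 other scalings the smallest log2 changes were -2.96 for Ftsj3 and -3.56 for Rrs1. Noc3l had a log2 ratio of -0.23.

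Of the 7 nucleolar chaperones and regulators, 6 fell in M1. Mybbp1a and Ddx21 were 12.01-fold and 11.3-fold lower, and Npm1 was 4.52-fold lower on its brightest probe, with 4 probes between -2.35 and -2.18 on the log2 scale. Nolc1, nucleolin (Ncl) and Npm3 were 2.92-fold, 2.91-fold and 2.74-fold lower. A second probe of Ncl, well above background on all arrays, had a log2 ratio of -2.84 in M1, of -0.48 after Torin1, where the brightest probe had 0.44, and of 0.50 after Lamtor1 loss, where it had -0.06. A second probe of Nolc1, not well above background in M1, was at least 10.1-fold lower there. Gnl3 had a log2 ratio of -0.47. With normexp background correction, 3 genes of low signal in M1 lay within 2-fold, at log2 ratios of -0.17 for Rrp12, -0.60 for Npm3 and -0.77 for Rrp1b. Of the 35 genes that lay within 2-fold after both Lamtor1 loss and Torin1, 26 were at least 2-fold lower in M1. Among all genes well above background on every array, 70.3% lay within 2-fold after both and 17.2% did so and were lower in M1.

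**Figure D3:**
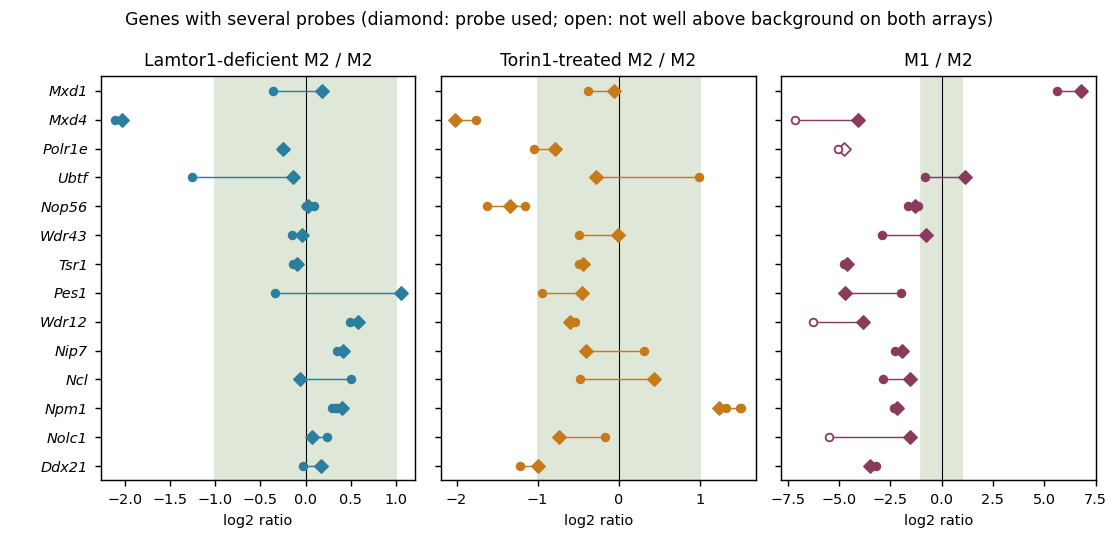
Log2 ratio to the M2 array for each probe of the 14 genes with several probes. Diamonds are the probes used, circles the others, open symbols are not well above background on both arrays, and green marks less than 2-fold. Probes of 1 gene lay more than 1 apart on the log2 scale for 2 genes after Lamtor1 loss (Pes1 and Ubtf), 1 after Torin1 (Ubtf) and 8 in M1.

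Genes close in function were read from further lists. Of the 92 other ribosome biogenesis genes, 3 fell and 2 rose by 2-fold after Torin1, among them Exosc9 (-1.44) and Rrp8 (-1.33) and, higher, Nsa2 (1.83) and Taf1d (1.17). In M1, 53 fell and 8 rose, with a median log2 ratio of -1.39. With the median shift 67 fell and 1 rose, and with quantile normalization and with normexp 3 rose. The lowest were Rrp15 (-5.05), Wdr36 (-4.57) and Wdr46 (-4.28), and the highest were Utp18 (3.15), Znrd1 (1.45) and Utp6 (1.36).

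Of 33 cytosolic ribosomal protein genes, which encode the subunits' protein components, 5 rose and 0 fell by 2-fold after Torin1, with a median log2 ratio of 0.69. Rpl5 (1.62), Rpl4 (1.33) and Rps6 (1.12) were the highest. With quantile normalization the median was 0.17, 1 gene passed 2-fold and 6 were below 0. After Lamtor1 loss 0 of the 32 with a value on both arrays passed 2-fold, with a median of 0.28. With quantile normalization that median was 0.07 and 10 of the 32 were below 0. In M1, 15 of 33 fell and 0 rose, with Rpl10a (-3.65), Rps2 (-2.54) and Rps18 (-2.33) the lowest. The count that fell was 28 with the median shift and 21 with quantile normalization.

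Of 26 Myc targets outside ribosome biogenesis, 7 fell and 0 rose after Torin1, led by the transferrin receptor Tfrc (-3.68), cyclin Ccnd2 (-2.44) and the nucleoside diphosphate kinase Nme1 (-2.21). After Lamtor1 loss, 0 fell and 2 rose, Bcat1 (1.49) and Hspe1 (1.19). In M1, 13 fell and 5 rose. Tfrc (-7.21), Apex1 (-6.26) and spermidine synthase Srm (-4.88) were the lowest, and the amino acid transporter Slc7a5 (2.05), Eif4ebp1 (1.90) and Odc1 (1.89) the highest.

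**Figure D4:**
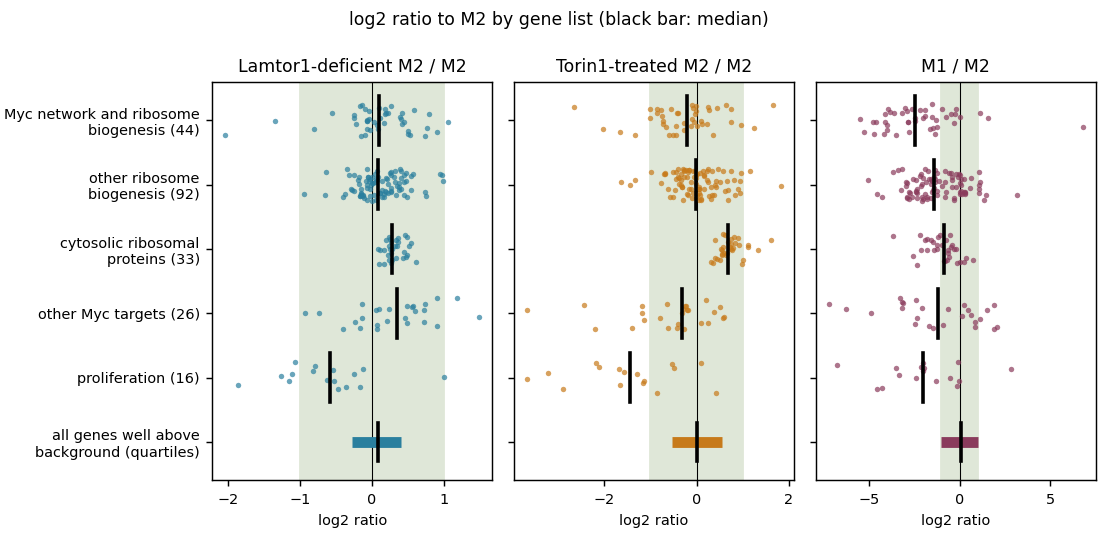
Log2 ratio to the M2 array of single genes (points) and their median (black bar) in 5 gene lists, with the quartiles and median of all genes well above background on both arrays in the bottom row. Green marks less than 2-fold, and the axes of the 3 panels differ. In the M1 panel the median lies at -2.45 for the 44 genes and at 0.09 for all genes well above background.

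Proliferation genes also differed between the arrays. Of 16, 5 fell and 1 rose after Lamtor1 loss (median log2 ratio -0.58), 11 fell and 0 rose after Torin1 (-1.43), and 11 fell and 1 rose in M1 (-2.01). Their median log2 level was -0.99 in M1, 1.02 in M2, 0.81 in Lamtor1-deficient M2 and -0.80 in Torin1-treated M2 BMDMs. Their summed signal over the 75th percentile was 150 in M1, 189 in M2, 93.7 and 69.7, of which Pcna, the sliding clamp of DNA replication, was the largest share. Without Pcna the sums were 13.0, 47.0, 29.7 and 24.7. In such bulk samples, fewer cells of a type and less RNA per cell cannot be told apart.

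Markers of other cell types also differed between the arrays. Elane, a neutrophil marker, and Cd4, a lymphocyte marker, had no value on the Torin1 array, where their spots were left out as outliers, and stay out of the sums. The summed signal of the 8 remaining neutrophil markers was 4.47 in M1, 90.7 in M2, 6.37 in Lamtor1-deficient M2 and 6.13 in Torin1-treated M2 BMDMs, with 4 to 7 of the 8 well above background, and without S100a9, the brightest, it was 3.097, 25.4, 3.92 and 3.73. The log2 level of Elane was 5.70 in M1, 3.64 in M2 and 4.22 in Lamtor1-deficient M2 BMDMs. The summed signal of 8 fibroblast markers was 16.3, 43.9, 57.3 and 15.7, with 5 to 8 of 8 well above background, and without Col1a2, the brightest, it was 10.4, 12.9, 20.98 and 4.30. That of the 9 remaining lymphocyte markers was 4.30, 3.32, 2.93 and 2.11, with 3 to 6 of 9 well above background, and without Cd3e, the brightest, it was 0.707, 1.19, 0.822 and 0.326, lower in M1 than in M2. Cd4 had log2 levels of 5.05 in M1, 3.25 in M2 and 2.86 in Lamtor1-deficient M2 BMDMs. Of the lymphocyte markers Cd3d, Cd3g and Cd8a were not well above background in M2 and were at least 4.35-fold, 1.79-fold and 2.37-fold higher after Lamtor1 loss. The summed signal of the 7 macrophage markers was 450.4, 779, 640 and 641 in the same order, and without Csf1r, the brightest, 245, 294, 282 and 239. Of these 7, 2 were at least 2-fold lower after Lamtor1 loss and after Torin1, namely Emr1 (log2 ratios -2.57 and -2.81) and Fcgr1 (-4.96 and -4.61). In M1, Emr1 and Csf1r were lower than in M2 (-1.04 and -1.24) and Fcgr1 was higher (2.49). The part of these cells and of proliferation in the levels of the 44 genes was not tested.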

How the data were processed

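Total RNA of 4 BMDM cultures was hybridised in 1 colour (Cy3) to Agilent mouse arrays. The deposited files hold spot intensities that the authors obtained with Agilent Feature Extraction (10.5.1.1 per the labels, 10.7.3.1 per the file headers), background-subtracted and detrended within each array. A deposited table of the series holds the same intensity values within 0.497%. Following the study's methods, each array was divided by its 75th percentile over non-control probes, without a filter on dim probes. The study's floor of 1.0 for signals was not needed, as the lowest signal on any array was 3.12. Control and outlier spots were left out, spots of 1 probe were averaged, and log2 ratios were taken for 1 probe per gene (Python 3.11.15, pandas 2.3.3, NumPy 2.4.6). The normexp correction (offset 50) and quantile normalization used limma 3.58.1 in R 4.3.3. For a probe not well above background, a bound was computed against the lowest signal well above background (15.7 to 21.6) or the probe's own signal where that was higher. The number of arrays, 4, limits the precision.

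A gene counted as changed at 2-fold. The genes and lists (other MAX-network and ribosome biogenesis genes, Myc targets, ribosomal proteins, proliferation, cell type markers) were chosen with earlier results of these data known. All 44 genes are named, and of the other lists up to 3 rises and 3 falls per comparison past 2-fold and well above background on both arrays. Named outside this rule are Nop10, Nhp2l1, Naf1, Shq1, Mxd3, Mycl1, Pcna, the targeted gene and the cell type markers. Ly6g was not found on the array under that name. The calculation was tested on simulated data. Alternatives were 4 scalings, dim-probe filters, kept outlier spots, other probe choices, the series table and other fold thresholds. Probe coordinates are on mm9 (array annotation) and promoters on GRCm38.p6 (RefSeq), and they were not combined.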

Additional observations from a re-analysis of the deposited data

How the results depend on the processing

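None of the alternatives run reversed a gene past 2-fold, but the second probes of Ubtf (M1) and Pes1 (Lamtor1 loss), taken alone, had the opposite sign. After Lamtor1 loss the 2 lower genes became 1 at 3-fold, and the 1 higher gene became 0 with quantile normalization, with the percentile taken over probes bright on every array, with the mean over all probes of a gene and at 3-fold, and 6 at 1.5-fold. After Torin1 the 6 lower genes became 10 with a shift to the median, 5 with normexp, 4 with quantile normalization, 4 (beside 3 higher) with the percentile over bright probes, 3 at 3-fold and 14 at 1.5-fold, and the 2 higher genes became 1 with the median shift, with quantile normalization and at 3-fold, and 6 at 1.5-fold. The median log2 ratio after Torin1 was -0.45 with the median shift. In M1 the 3 higher genes became 2 with quantile normalization and with the mean over all probes, and 1 with the median shift and at 3-fold. The M1 median was -3.27 with the median shift, -2.13 with normexp, -2.18 over the 41 genes well above background and -2.55 with the mean over all probes. The cause of these differences was not tested.

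The median shift moved the median of all genes by -0.25 after Torin1 and by -0.82 in M1, normexp moved it by 0.26 after Torin1, and quantile normalization by -0.80 in M1. Over the 4 scalings, 7 genes changed sign after Lamtor1 loss, 10 after Torin1 and 1 (Polr1c) in M1. Scaling on spike-in controls was not run, because 0 of 10 were well above background on all arrays. No paired analysis was possible because each group is 1 array. Without replicates, differences near the technical SD or the 2-fold line cannot be placed.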
